A study of Arabidopsis thaliana with 11 samples.

Results

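Of the 5101 regions bound in all 3 libraries of tagged HY5, 495 (9.70%) lay in neither a promoter nor a gene body, and these 495 intergenic regions are described here. A bound region was a peak of HY5ox replicate 1 that overlapped, by at least 1 bp, a peak of HY5ox replicate 2 and a peak of HY5ox replicate 3. It was counted as intergenic when the authors' deposited peak table of HY5ox replicate 1 gave it no gene, neither for a promoter window of 2000 bp upstream of a start site nor for a gene body. The other 4606 consensus regions comprised 4238 in promoters and 368 in gene bodies alone. The 8 libraries held 89193 peaks in all. Because the regions were chosen by their peak calls in the HY5ox libraries, values from the HY5ox libraries are given as a description, and tests use only the HY5-VP16 and HY5-SRDX libraries.

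HY5 is a basic leucine zipper transcription factor that binds short motifs with an ACGT core and promotes seedling greening, pigment formation and the arrest of hypocotyl growth in light. In darkness the ubiquitin ligase COP1 marks it for degradation. HY5 is generally held to lack a strong activation domain of its own, and fusions with an activation or repression domain are used to study its targets. A region far from a start site may belong to the gene on either side or to neither, and immunoprecipitation alone does not assign it.

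All libraries came from whole Arabidopsis thaliana seedlings of the Columbia ecotype that were kept 3 days in darkness at 21 °C and then lit for 2.5 h at 100 µmol per square metre per second. HY5ox (3 libraries), HY5-VP16, which carries an added activation domain (3 libraries), and HY5-SRDX, which carries an added repression domain (2 libraries), were Flag-tagged through the FLASH2 tag and expressed from the 35S promoter. This viral promoter is active in most tissues, so binding was not measured at the native level or in the native cells of HY5. The controls were 2 Columbia samples and 1 hy5 sample that went through the same Flag immunoprecipitation. The labels state neither whether the transgenic plants lacked the endogenous HY5 nor how many lines were used. Set 1 held HY5ox replicate 1, HY5-VP16 replicates 1 and 2, both HY5-SRDX libraries and a Columbia control that these 5 libraries shared. Set 2 held HY5ox replicate 2 with the hy5 control, and set 3 held HY5ox replicate 3 and HY5-VP16 replicate 3 with the other Columbia control. Separate cultures or plants are not stated for the libraries of a construct, and p-values therefore reflect library-to-library spread that may be technical only.

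Depth ranged from 11.5 to 56.0 M tags. The number of peaks ranged from 2958 in HY5-VP16 replicate 3, the deepest library, to 20509 in HY5-SRDX replicate 1. These libraries stood apart from the rest, and results that rest on them are given with and without them. HY5-SRDX replicate 1 also had the narrowest peaks, 167 bp wide, against 191 to 301 bp in the other libraries.

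The 495 regions were spread over all 5 chromosomes. Chromosome 1 held 150 of them (11% of its 1359 consensus regions), chromosome 2 held 85 (10.9% of 777), chromosome 3 held 89 (8.66% of 1028), chromosome 4 held 62 (7.67% of 808) and chromosome 5 held 109 (9.65% of 1129). The 95% Wilson intervals of these shares, which cover counting error only, ran from 9.48 to 12.8% on chromosome 1 and from 6.03 to 9.72% on chromosome 4. In windows of 5 Mb with at least 100 consensus regions, 22 windows in all, the intergenic share ranged from 5.45% in the first window of chromosome 1 to 19% between 10 and 15 Mb of the same chromosome, with a median of 9.78%. Intergenic regions thus took their largest share of binding in the central part of chromosome 1 among the windows compared. Their surroundings held somewhat fewer of the genes listed in the authors' peak tables. The median was 48 such genes within 100 kb, against 50 around the other consensus regions. Fewer than 40 lay within that distance for 20.8% of the 495 regions, against 11.2% of the other consensus regions. The regions in gene bodies alone lay between, with a median of 49 and 14.9% below 40.

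Most intergenic regions lay a few kilobases outside a promoter window rather than far from all genes. The centre of a region was 2136 to 36202 bp upstream of the nearest listed start site it lay upstream of. The median was 3786 bp. Start sites were known only for genes in the authors' peak tables, so these distances are upper limits. A flanking gene had no listed strand for 108 of the 495 regions. For 169 regions the distance was up to 3000 bp, for 159 between 3000 and 5000 bp, for 128 between 5000 and 10000 bp, and for 39 more than 10000 bp. The 3' side of genes was close in many cases. Of the regions, 133 (26.9%) were centred within 1000 bp past a listed gene end and 197 (39.8%) within 2000 bp. Ends were known only for genes with a body in the authors' tables, so these shares are lower limits. HY5ox replicate 1 had another peak within 2000 bp of 43.0% of the intergenic regions, against 31.2% of the other consensus regions.

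**Figure D1:**
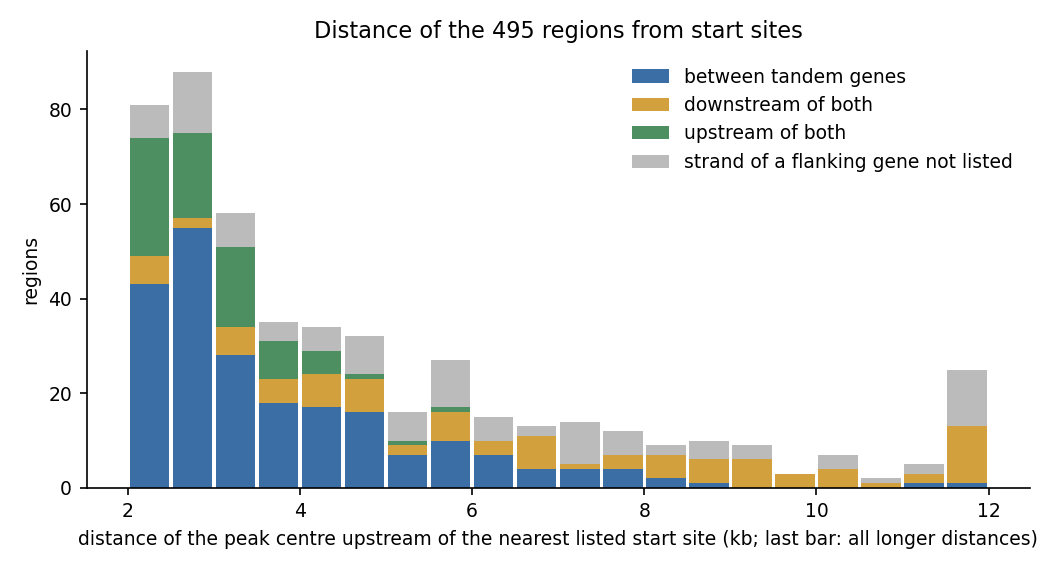
Number of intergenic HY5 regions (vertical axis) by distance of the peak centre upstream of the nearest start site in the authors' tables, in kb (horizontal axis, bars of 0.5 kb, the last bar holding all longer distances). Colours give the strands of the 2 flanking genes. Counts are highest between 2 and 3 kb (169 regions) and fall with distance. Regions downstream of both flanking genes make up 38 of the 43 regions beyond 8 kb for which both strands are known. Such regions lie upstream of neither flank, so their distance reaches past a flanking gene by definition.

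The strands of both flanking protein-coding genes were listed for 387 of the 495 regions. Of these, 218 (56.3%) lay between genes on the same strand, downstream of one and upstream of the other. A further 93 (24%) lay downstream of both genes and 76 (19.6%) upstream of both. Among 18860 pairs of adjacent protein-coding genes with listed strands, 50.4% were on the same strand, 23.5% converged and 26.2% diverged. These shares are given without a test, and the rule itself removes every region within 2000 bp upstream of a start site. Of the regions, 86 (17.4%) overlapped a gene of the RefSeq table of assembly TAIR10.1, among them 44 that overlapped a long non-coding RNA and 31 that overlapped a protein-coding gene as RefSeq draws it.

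The flanks comprised 877 distinct protein-coding genes, 3.20% of the 27444 in RefSeq. Of these, 261 (29.8%) were listed as targets in all 3 HY5ox tables, against 23.5% of all protein-coding genes. Both flanking genes were such targets for 41 regions, 1 of them for 213 regions, and neither for 241 regions (48.7%). The same share was not counted for pairs of adjacent genes in general, so the 48.7% has no background beside it.

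Regions were named by a rule. It took up to 10 with a peak in all 8 libraries and up to 10 with the best mean percentile rank in HY5ox. It also took the strongest on each chromosome in HY5ox replicate 1. The percentile rank orders the peaks of a library by the caller's score, with values near 0 for the strongest. The strongest intergenic region by mean HY5ox rank was chr5:25086758-25087030 (TAIR10), between MYB96, a MYB factor of wax synthesis and abscisic acid responses, and GSTU9, a glutathione transferase. Its centre lay 5793 bp upstream of the MYB96 start site and 1800 bp past the end of GSTU9. The nearest listed start site it lay upstream of was that of AT5G62490, at 3236 bp. The region held 228, 217 and 379 tags per 10 M in HY5ox replicates 1, 2 and 3 (275 ± 90.5, SD, n = 3). HY5-VP16 replicates 1 and 3 gave 219 and 150 tags per 10 M, and HY5-VP16 replicate 2 had no peak there. HY5-SRDX gave 55.2 and 160 tags per 10 M in replicates 1 and 2. The region stood within the top 2% of peaks in each of the 7 libraries that called it.

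A region between PUCHI, an AP2/ERF factor of lateral root and flower development, and EMB269, a gene needed in the embryo, was the strongest of chromosome 5 in HY5ox replicate 1. It lay at chr5:6170309-6170581, 4454 bp upstream of PUCHI and 1216 bp past the end of EMB269. Its normalised tag counts were 240, 229 and 283 per 10 M in HY5ox replicates 1 to 3, then 142, 94.3 and 109 in HY5-VP16 replicates 1 to 3 and 42.8 and 139 in HY5-SRDX replicates 1 and 2. No other HY5ox replicate 1 peak lay nearer than 12325 bp. It exceeded the surrounding 10 kb by 11.4-fold in HY5ox replicate 1, by the authors' value, where the median of the 495 regions was 3.36-fold.

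The region with the best mean rank over all 8 libraries was chr3:5125323-5125595, between ERF4, an ethylene response factor that represses transcription, and AT3G15220. It lay past the ends of both genes, by 2897 bp for ERF4 and 1138 bp for AT3G15220. Tags per 10 M were 197, 195 and 308 in HY5ox replicates 1 to 3, 187, 136 and 145 in HY5-VP16 replicates 1 to 3, and 93.6 and 178 in HY5-SRDX replicates 1 and 2. Its percentile rank was between 0.0658 and 1.47 in the 8 libraries. Next came chr3:11386933-11387205, 3065 bp upstream of AFP3, which encodes a member of a protein family that binds the abscisic acid factor ABI5. There the tags per 10 M were 209, 201 and 296 in HY5ox replicates 1 to 3, 240, 135 and 126 in HY5-VP16 replicates 1 to 3, and 86.8 and 152 in HY5-SRDX replicates 1 and 2. Only 20 genes of the authors' tables lay within 100 kb of it, and its rank was between 0.124 and 2.77 in all 8 libraries.

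At a region 3527 bp upstream of MP (chr1:6883216-6883488), the auxin response factor MONOPTEROS, the peak ranked lower within the HY5-SRDX lists than within the others. Tags per 10 M were 198, 191 and 283 in HY5ox replicates 1 to 3, 159, 107 and 115 in HY5-VP16 replicates 1 to 3, and 39.7 and 67.8 in HY5-SRDX replicates 1 and 2. Its percentile rank was 17.7 and 21.3 in HY5-SRDX replicates 1 and 2, and no higher than 4.14 in any of the other 6 libraries. The strongest region of chromosome 2 lay 3812 bp upstream of MAX2, the F-box protein of strigolactone and karrikin signalling, and 1888 bp past LSH10, of a family named for light-sensitive hypocotyls (chr2:17752192-17752464). It gave 178, 192 and 342 tags per 10 M in HY5ox replicates 1 to 3, 134, 106 and 129 in HY5-VP16 replicates 1 to 3, and 113 in HY5-SRDX replicate 2. HY5-SRDX replicate 1 had no peak there, and none at the region between ANAC087, a NAC factor, and APY2, an apyrase (chr5:6046143-6046415), which had peaks in the other 7 libraries.

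The other regions named by the rule held 147 to 228 tags per 10 M in HY5ox replicate 1. They lay between AT1G13360 and AT1G13370 (chr1:4585330-4585602), AT5G11460 and AT5G11470, AT1G77730 and the phosphoinositide kinase gene PIP5K2, FP3 and RMI1, AT1G64380 and AT1G64385, the potassium transporter gene KUP6 and the spermidine synthase gene SPDS2, AT3G13590 and AT3G13600, and AT4G39760 and TPPH, a trehalose phosphate phosphatase gene. All 8 had a peak in all 8 libraries, a condition under which each of them except the TPPH region was named. The TPPH region, the strongest of chromosome 4 in HY5ox replicate 1 alone, had percentile ranks of 3.24, 6.01 and 19.1 in HY5ox replicates 1 to 3. Its ranks were 29.7, 19.6 and 88.8 in HY5-VP16 replicates 1 to 3 and 67.6 and 75.7 in HY5-SRDX replicates 1 and 2, so it was near the intergenic median in HY5-VP16 replicates 1 and 2 and well below it in the other 3 fusion libraries.

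**Figure D2:**
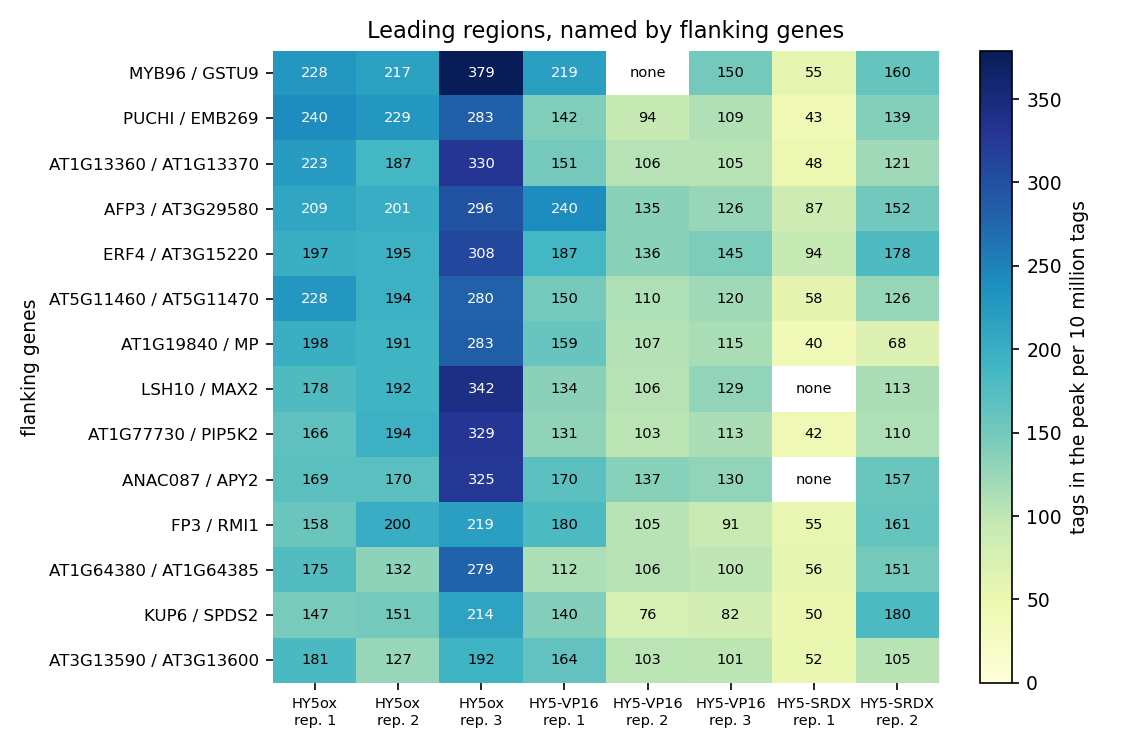
Normalised tag counts (tags in the peak per 10 M tags, colour scale and printed values) of the 14 intergenic regions with the best ranks in HY5ox or over all 8 libraries, one per line and named by the flanking genes, in the 8 libraries (columns). The cells marked none had no peak; 3 of the 14 regions lacked a peak in 1 library each. Peak widths and controls differ between libraries, so the values describe a region within its column.

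Normalised tag counts of the 495 regions in HY5ox replicate 1 ran from 38.2 to 240 per 10 M with a median of 84.7, against a median of 90.3 for the other consensus regions. In HY5ox replicate 2 the intergenic median was 75.6, against 85.1 for the others, and in HY5ox replicate 3 it was 95.2, against 105. The Columbia control, scaled to HY5ox replicate 1, held a median of 15.1 tags in the intergenic regions and 15.7 in the other consensus regions. In percentile rank, the intergenic median was 28, 52.1 and 34.9 in HY5ox replicates 1, 2 and 3, against 23.6, 37.5 and 28 for the other consensus regions. The intergenic regions were thus somewhat weaker in each HY5ox library by score, while the fold over the control was close, with medians of 8.65 and 8.29 in HY5ox replicate 1. Across the 495 regions, ranks in pairs of HY5ox libraries had Spearman coefficients of 0.763, 0.818 and 0.817, a description of lists that share the selection.

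The thresholds of the rule left few borderline cases. Within 50 bp of a promoter window or gene body lay 31 of the 495 regions, with a median score of 125 in HY5ox replicate 1, and 20 of the other consensus regions overlapped a window or body by 50 bp or less, with a median score of 139. The overlap with HY5ox replicates 2 and 3 was under 50% of the peak width for 34 regions, and the smallest overlap was 12 bp. HY5ox replicate 1 had 1299 peaks without a gene, and the 804 that were left out for lack of a peak in replicate 2 or 3 were weaker. Their median score was 96 where 1 of the other libraries had a peak and 81 where neither had, against 126 in the 495 regions. Of HY5ox replicate 1 peaks without a gene 38.1% entered the consensus, against 41.3% of those with a gene.

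Presence in the fusion libraries asks whether HY5 with an added domain occupied the same intergenic sites. HY5-VP16 replicate 1 had a peak at 407 of the 495 regions (82.2%), where the share of all 5101 consensus regions was 80.7%. HY5-VP16 replicate 2 had one at 379 (76.6%, all consensus regions 76.3%), and HY5-VP16 replicate 3 at 224 (45.3%, all consensus regions 46.4%). In HY5-VP16 libraries intergenic regions were thus recovered about as often as consensus regions in general. HY5-SRDX replicate 1 had a peak at 216 regions (43.6%, all consensus regions 34.5%), and HY5-SRDX replicate 2 at 347 (70.1%, all consensus regions 66.0%). In both HY5-SRDX libraries the intergenic share was above the background, by the most in replicate 1.

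Set against the other 4606 consensus regions alone, the intergenic share was higher by 1.63 and 0.317 percentage points in HY5-VP16 replicates 1 and 2, differed by -1.23 points in HY5-VP16 replicate 3, and was higher by 10.1 and 4.51 points in the first and second HY5-SRDX libraries. The mean difference over the 5 libraries was 3.07 ± 4.47 points (SD, n = 5), in the same direction in 4 of 5 libraries, and an exact two-sided sign-flip test gave p = 0.188, where 0.0625 is the smallest that 5 libraries allow. The difference did not exceed the spread between libraries. Without HY5-SRDX replicate 1 it was 1.31 points (exact sign-flip p = 0.375), and without HY5-VP16 replicate 3 it was 4.14 points (p = 0.125, the smallest that 4 libraries allow, same exact test).

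**Figure D3:**
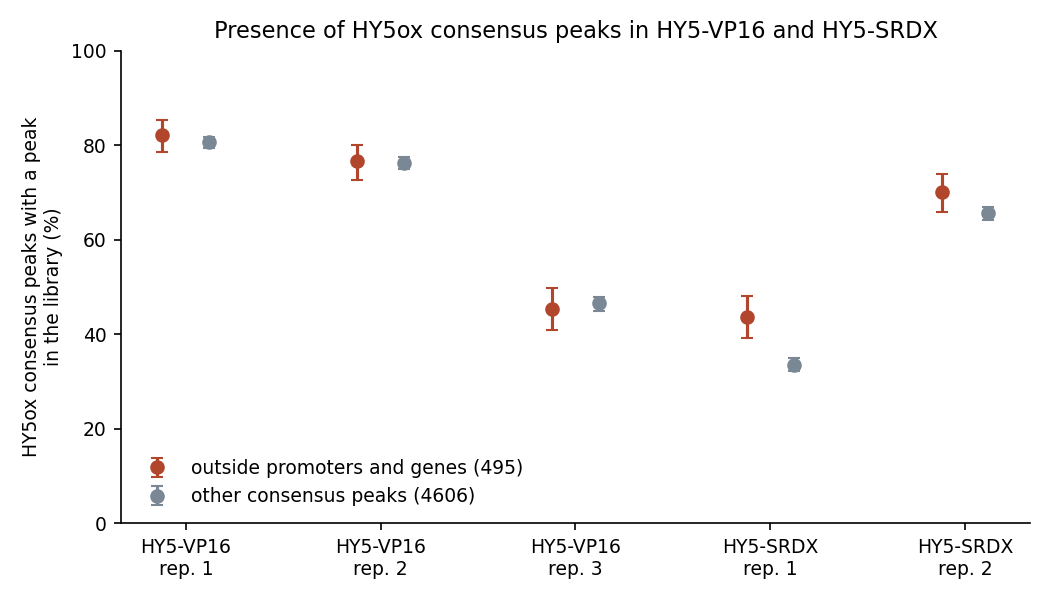
Share of HY5ox consensus regions with a peak in each HY5-VP16 and HY5-SRDX library (percent, vertical axis), for the 495 intergenic regions (left point of each pair) and the other 4606 consensus regions (right point), with 95% Wilson intervals that cover counting error only. The pairs nearly coincide in HY5-VP16, and in HY5-SRDX replicate 1 the intergenic share is 43.6% against 33.5%.

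By construct, the difference between intergenic and other regions averaged 0.240 ± 1.43 points in HY5-VP16 (SD, n = 3) and 7.31 ± 3.96 points in HY5-SRDX (SD, n = 2). All 3 HY5-VP16 values were below both HY5-SRDX values. The difference between constructs was -7.07 points (HY5-VP16 minus HY5-SRDX), with an exact two-sided permutation p = 0.1, the smallest that 3 against 2 libraries allow, so the design cannot reach 0.05. Without HY5-SRDX replicate 1 it was -4.27 points (3 against 1 library, exact permutation p = 0.25, the smallest possible). Within set 1 it was -6.34 points (2 against 2 libraries, exact permutation p = 0.333, again the smallest possible). The share of intergenic regions present averaged 68.0 ± 19.9% in HY5-VP16 (SD, n = 3) and 56.9 ± 18.7% in HY5-SRDX (SD, n = 2), and this difference of 11.1 points was within the spread (exact permutation p = 0.5). It was -2.09 points without HY5-SRDX replicate 1, and 22.5 points within set 1.

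The excess in HY5-SRDX was present at every level of HY5ox binding. When the 5101 consensus regions were divided into 4 equal classes by score in HY5ox replicate 1, the intergenic share in HY5-SRDX replicate 1 exceeded that of the other regions by 15.4, 12.2, 10.8 and 9.47 points from the strongest class to the weakest. In HY5-SRDX replicate 2 the excess was 5.09, 4.04, 9.22 and 5.32 points. The HY5-VP16 libraries ranged between -2.81 and 5.67 points over the 4 classes. The classes held 98, 122, 139 and 136 intergenic regions, so weaker classes held more of them. These are descriptions, and no class was tested.

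**Figure D4:**
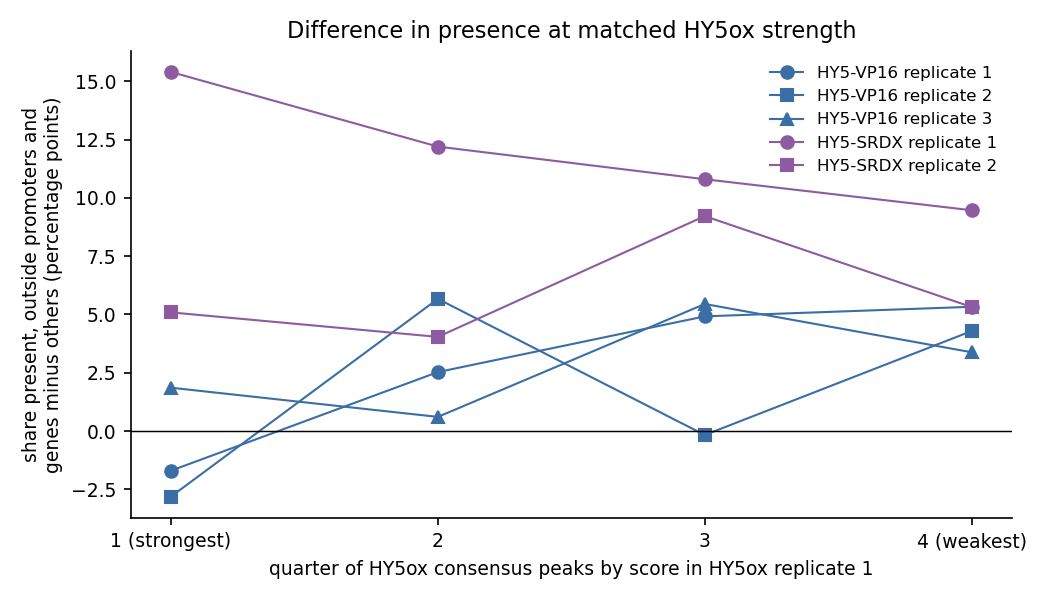
Difference in the share of regions present, intergenic minus other consensus regions (percentage points, vertical axis), in 4 equal classes of HY5ox replicate 1 score from strongest to weakest (horizontal axis), with one line per HY5-VP16 or HY5-SRDX library. HY5-SRDX replicate 1 lies above all other lines, between 9.47 and 15.4 points, and HY5-SRDX replicate 2 is above 0 in each class.

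Presence in HY5-SRDX replicate 1 varied with the strands of the flanking genes. That library had a peak at 47.7% of the 218 regions between genes on the same strand and at 29% of the 93 downstream of both genes. It had one at 38 of the 76 (50%) upstream of both, where the share of all consensus regions was 34.5%. HY5-SRDX replicate 2 differed less, with 73.4, 64.5 and 69.7% for the same groups in that order (all consensus regions 66.0%). All 8 libraries had a peak at 25.2, 14 and 21.1% of them (all consensus regions 17.7%). No such division of the other consensus regions is given. Median HY5ox replicate 1 rank differed little between these groups, at 26.9, 28.6 and 30.7. The groups were compared after their values were seen, with no test.

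All 5 fusion libraries had a peak at 105 of the 495 regions (21.2%, all consensus regions 17.7%), and none of the 5 had one at 22 regions (4.44%, all consensus regions 5.43%). The remaining 368 regions had a peak in 1 to 4 of these libraries. Both HY5-SRDX libraries had a peak at 195 intergenic regions (39.4%), against 29.5% of the other consensus regions. The corresponding shares for all 3 HY5-VP16 libraries were 38.4% and 38.9%. Regions in both HY5-SRDX libraries and in no HY5-VP16 library numbered 5 (1.01%), against 0.499% of the other consensus regions, and those in all 3 HY5-VP16 libraries and in no HY5-SRDX library numbered 25 (5.05%), against 6.53%. By chromosome, all 8 libraries had a peak at 38 regions on chromosome 1 (25.3%), 11 on chromosome 2 (12.9%), 22 on chromosome 3 (24.7%), 14 on chromosome 4 (22.6%) and 20 on chromosome 5 (18.3%). The authors' merged table of 981 peaks found in all libraries overlapped 112 of the 495 regions, among them every one of the 105. It was merged over the same 8 libraries, so the overlap is no independent support. Of its peaks, 110 (11.2%) had no gene.

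Among regions with a peak, the median percentile rank in HY5-VP16 replicates 1, 2 and 3 was 29.7, 21.6 and 55.2 for the intergenic regions, against 28.1, 21.6 and 42.7 for the other consensus regions. In HY5-SRDX replicates 1 and 2 it was 19.3 and 21.3, against 23 and 26.4. Intergenic regions therefore ranked nearer the top in both HY5-SRDX libraries, and farther from it in HY5-VP16 replicates 1 and 3. The mean difference over the 5 libraries was 1.06 ± 6.94 rank points (SD, n = 5; exact two-sided sign-flip p = 0.875), within the spread. It was -1.80 without HY5-VP16 replicate 3, the library with 2958 peaks. Between constructs, HY5-VP16 minus HY5-SRDX, the difference was 9.11 rank points (exact permutation p = 0.2) and 5.22 within set 1 (p = 0.333, the smallest possible, same exact test).

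Ranking by the deposited fold over the control turned the direction of the mean difference. The sign changed in HY5-VP16 replicates 1 and 3, since both HY5-SRDX libraries had the same direction by score and HY5-VP16 replicate 2 had equal medians. The intergenic median was then 34.9, 33 and 41.5 in HY5-VP16 replicates 1, 2 and 3 and 22.4 and 28.3 in HY5-SRDX replicates 1 and 2. For the other consensus regions it was 39.4, 34 and 43.6 in the HY5-VP16 libraries and 27.4 and 34.5 in those of HY5-SRDX. Intergenic regions ranked nearer the top by fold in 5 of 5 libraries, by 3.74 rank points on average (exact sign-flip p = 0.0625, the smallest possible). The fold depends on few control tags where the control is low, and 4 of these 5 libraries share 1 control.

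**Figure D5:**
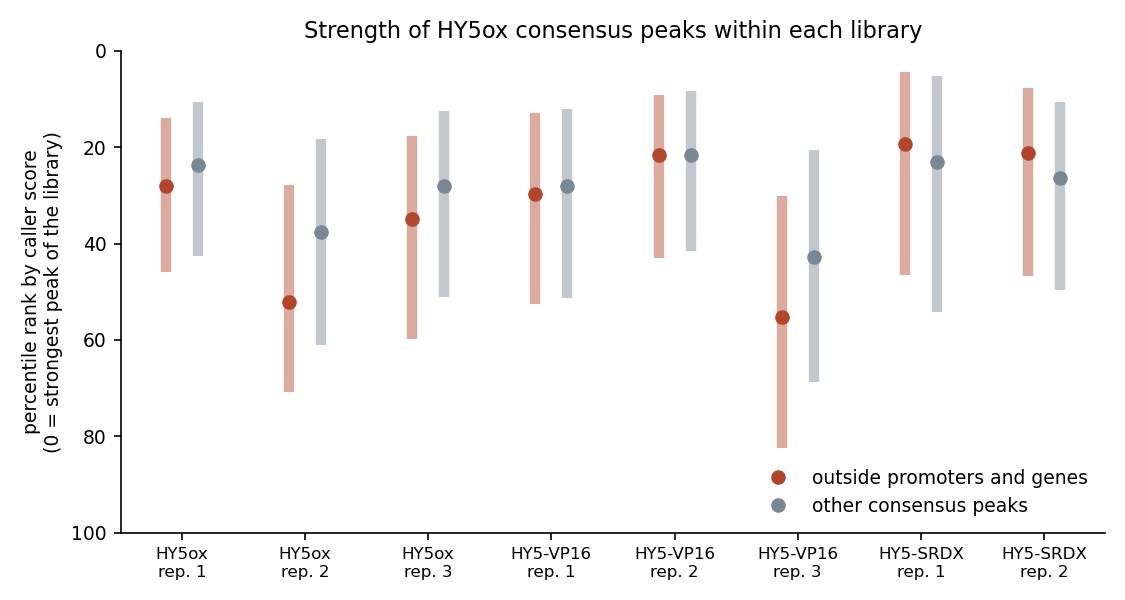
Median (point) and interquartile range (bar) of the percentile rank by caller score (vertical axis, 0 for the strongest peak, drawn at the top) in each of the 8 libraries, for the intergenic regions (left) and the other consensus regions (right). The intergenic medians are lower in strength in the 3 HY5ox libraries and in HY5-VP16 replicate 3, equal in HY5-VP16 replicate 2 (21.6) and higher in both HY5-SRDX libraries.

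Counted over all peaks of a library, the share without a gene was 11.7, 10.5 and 10.3% in HY5-VP16 replicates 1, 2 and 3 and 18.4 and 13% in HY5-SRDX replicates 1 and 2. HY5ox replicates 1, 2 and 3 gave 10.4, 9.83 and 10.4%. The mean was 10.9 ± 0.766% in HY5-VP16 (SD, n = 3) and 15.7 ± 3.81% in HY5-SRDX (SD, n = 2). Both HY5-SRDX values were above all HY5-VP16 values, by 4.86 points on average (exact permutation p = 0.1, the smallest possible), and within set 1 by 4.59 points (p = 0.333, the smallest possible, same exact test). Without HY5-SRDX replicate 1 the difference, HY5-VP16 minus HY5-SRDX, was -2.17 points. HY5-SRDX replicates 1 and 2 listed 20509 and 12672 peaks of 167 and 209 bp, and HY5-VP16 replicates 1, 2 and 3 listed 9514, 13375 and 2958 peaks of 253, 191 and 257 bp. The part of peak number and width in the result was not tested.

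Genes of 4 lists were looked up among the flanks. Of 27 light signalling genes 1 did (3.70%), of 13 clock genes 0 (0%), of 32 B-box (BBX) genes 3 (9.38%) and of 12 flavonoid genes 1 (8.33%), against 3.20% of all protein-coding genes. The counts are small and are given without a test. Targets in all 3 HY5ox tables, through promoter or body peaks, were 20 of 27 light signalling and 12 of 13 clock genes. They also included 16 of 32 BBX and 6 of 12 flavonoid genes, against 23.5% of all protein-coding genes (6453 of 27444).

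COP1 flanked the region chr2:13983568-13983840, which was centred 169 bp past the end of COP1 in the authors' tables and overlapped the COP1 gene as RefSeq draws it. It was among the weakest, with 45.8, 61.7 and 46.5 tags per 10 M in HY5ox replicates 1 to 3. HY5-VP16 replicates 1 and 2 had 73.3 and 44.6 tags per 10 M there and HY5-SRDX replicate 2 had 55.0, while HY5-VP16 replicate 3 and HY5-SRDX replicate 1 had no peak. The overlaps were small, and when 50% of the narrower peak had to be shared, only 2 libraries had a peak at the COP1 region in place of 6, so it would not enter the 495. BBX6, listed as COL5, had a region on either side, at chr5:23351798-23352070 and chr5:23359329-23359601. The upstream region, 3530 bp from the BBX6 start site, had a peak in 7 libraries, and the other, 2476 bp past the gene's end, had one in the 3 HY5ox libraries only.

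BBX29 flanked chr5:22113152-22113424, 1016 bp past its end, with 76.4, 99.9 and 87.6 tags per 10 M in HY5ox replicates 1 to 3. Of the fusion libraries, HY5-VP16 replicate 1 (58.6) and HY5-SRDX replicate 2 (54.0) had a peak there. It too would not enter the 495 under the stricter overlap, which left 2 of its 5 libraries. BBX31 flanked chr3:7711934-7712206, 2337 bp upstream of its start site. That region had percentile ranks of 60.9, 93.3 and 72.2 in HY5ox replicates 1 to 3, 55.5 and 66.6 in HY5-VP16 replicates 1 and 2, and 58.5 and 11.7 in HY5-SRDX replicates 1 and 2. It was thus strong in HY5-SRDX replicate 2 alone, with 82.0 tags per 10 M, and had no peak in HY5-VP16 replicate 3. The stricter overlap left 6 of its 7 libraries and not all 3 of HY5ox, so it would not enter the 495 either. MYB90, an activator of anthocyanin synthesis, flanked chr1:24766986-24767258, 1581 bp past its end. HY5ox gave 95.2, 124 and 116 tags per 10 M there in replicates 1 to 3, HY5-VP16 replicates 1 and 2 gave 113 and 60.8, and HY5-SRDX replicate 2 gave 40.8.

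Some gaps between genes held several intergenic regions. Of 451 gaps, 409 held 1 region, 40 held 2 and 2 held 3. The gaps with 3 were those between AT1G30820 and DIS2, an Arp2/3 complex gene, and between CIPK1, a protein kinase that works with calcium sensors, and AT3G17520. In the first, the central region (chr1:10954352-10954624) had a peak in all 8 libraries, with 181 tags per 10 M in HY5ox replicate 1, and its neighbours had a peak in 6 each. In the second, the central region (chr3:5996762-5997034) again had all 8, with 176 tags per 10 M in HY5ox replicate 1, and the outer ones had 4 and 7.

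The genes flanked by most regions were RAP2.4 and CRF3, with 4 each, and these were chosen after their values were seen. RAP2.4 encodes an AP2/ERF factor and CRF3 a cytokinin response factor. Of the RAP2.4 regions, the one nearest the start site (chr1:29360944-29361216, 3169 bp upstream) had a peak in all 8 libraries, with 117, 115 and 124 tags per 10 M in HY5ox replicates 1 to 3. The others had 7, 6 and 4 libraries. The CRF3 regions had a peak in 7, 7, 5 and 5 libraries, and none of them had one in HY5-SRDX replicate 1. NCED3, the rate-limiting enzyme of abscisic acid synthesis, was flanked by 3 regions. The strongest of these (chr3:4845927-4846199) lay 12464 bp upstream of NCED3, and the listed start site of AT3G14470 was nearer, at 11877 bp. The other flanking gene, CID9, had no listed start site. This region held 145, 142 and 226 tags per 10 M in HY5ox replicates 1 to 3, 65.6, 98.3 and 83.2 in HY5-VP16 replicates 1 to 3, and 44.6 and 92.8 in HY5-SRDX replicates 1 and 2.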

How the data were processed

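Chromatin from seedlings was immunoprecipitated with a Flag antibody and sequenced. The submitters' processing notes name HOMER 4.9.1, Bowtie2 2.3.0, CASAVA 1.8.2 and the build TAIR10. HOMER called the peaks of each library, per the file headers, against the control of its set, at a false discovery rate of 0.001, with at least 3-fold over the control (Poisson p 0.0001) and 2-fold over the surrounding 10 kb (Poisson p 0.001).

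The deposited signal of a peak is its tags scaled by the authors to 10 M. The deposited score, the ratio (fold) over the control or the local region, and the fraction called focus ratio (median 0.714 in the 495 regions and 0.711 in the other consensus regions, HY5ox replicate 1) are the authors' values. These served to describe and rank the peaks of a list. Values of different lists are printed side by side, and comparisons between libraries use presence or the rank within a list. Peaks were assigned to genes by the authors, from an annotation that the sources used here do not name.

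Overlaps of at least 1 bp, percentile ranks, distances and exact tests over libraries were computed with Python 3.11.15, numpy 2.4.6, pandas 2.3.3 and scipy 1.17.1, and tested on simulated data; figures used matplotlib 3.10.9. Flanks are the nearest RefSeq protein-coding genes, by gene midpoint. Strands and distances to genes come from the authors' tables. Of 25262 genes named there, 24902 matched RefSeq. Intervals are 95% Wilson intervals. The threshold was 0.05. Depth was 11.5 to 56.0 M tags. Alternatives were stricter overlap, stronger peaks, other anchor libraries, other ranking values, set 1 alone, leaving out each library and the replicate number as a block. Named regions followed the rule given with the results, and genes of 4 lists that flank a region were added. The members and lists were chosen with earlier results of these data known. No sequences were analysed here.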

Additional observations from a re-analysis of the deposited data

How the results depend on the processing

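The number of intergenic regions was 461 when overlap required 50% of the narrower peak, 475 when all 3 HY5ox tables had to give no gene, and 491 or 499 with HY5ox replicate 2 or 3 as the anchor. It fell to 215 when only the stronger 50% of each list was used, by construction. Leaving out each HY5ox library, an alternative added after the data were seen, gave 544 to 833, the most without replicate 2. The mean difference in presence between intergenic and other regions stayed positive under every alternative run, from 1.31 to 4.14 points when 1 fusion or HY5ox library was left out, with exact p between 0.125 and 0.375, and at 3.55 and 3.74 points under stricter overlap and stronger peaks. The mean rank difference was reversed by ranking on fold (-3.74), as given in the report, and ranged from -1.80 to 2.61 when 1 library was left out. Between constructs, the difference in the presence of intergenic against other regions ranged from -9.88 to -4.27 points and that in rank from 5.22 to 11.5 when 1 library was left out, added after the data were seen. HY5-VP16 minus HY5-SRDX ranged from -2.09 to 24.4 points for the presence of intergenic regions and from -7.56 to -2.17 points for the share of all peaks without a gene. Apart from the stated reasons, the cause of these changes was not tested. With the replicate number as a block, 2 pairs gave 22.5 and -4.59 points for these 2 results (exact p = 0.5, the smallest possible). Same-numbered libraries had deviations with correlations of -0.0482 and 0.0248 over the 5101 regions. With 2 HY5-SRDX libraries the deviations from their mean mirror each other, so these values cannot settle whether same-numbered libraries are paired. The libraries of both pairs also share set 1 and its control. Under stricter overlap, 3 of the 21 named regions had a peak in fewer libraries: that of COP1 in 2 in place of 6, that of BBX29 in 2 in place of 5 and that of BBX31 in 6 in place of 7, and all 3 would leave the 495. No genome was used, so the planned motif counts were not run. Peak lists hold only what passed the caller, so a missing peak shows no absence of binding.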

Other observations

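Non-coding genes lay beside many of the intergenic regions, and no such count was made for other regions. Between the flanking protein-coding genes, RefSeq placed a non-coding gene or pseudogene for 198 of the 495 regions, a long non-coding RNA for 146, a pseudogene for 34, a microRNA gene for 10 and a transfer RNA gene for 6. The microRNA genes were chosen for naming after their values were seen. They included MIR156a and MIR156f, whose products target SPL factors of developmental timing, MIR164b, whose product targets NAC factors, and MIR858a with MIR858b, whose products target MYB factors. The MIR156f region (chr5:9133200-9133472) was the strongest of these in HY5ox replicate 1, with 138 tags per 10 M, and had a peak in 7 libraries. The MIR156a region (chr2:10679234-10679506) had 101 tags per 10 M in HY5ox replicate 1 and a peak in 6 libraries, in neither HY5-SRDX library. The MIR858 region (chr1:26778797-26779069) had 74.3, 58.2 and 60.7 tags per 10 M in HY5ox replicates 1 to 3, no peak in HY5-VP16, and 46.6 in HY5-SRDX replicate 2. The MIR164b region (chr5:284082-284354) had a peak in the HY5ox libraries and in HY5-VP16 replicate 1 alone.

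A region between IRT1, the root iron transporter, and the gene RefSeq names RING (chr4:10710620-10710892) had a peak in all 8 libraries, with 115, 72.1 and 105 tags per 10 M in HY5ox replicates 1 to 3. The region farthest upstream of its nearest listed start site, at 36202 bp, was chr4:4070204-4070476, in a stretch of chromosome 4 that RefSeq fills with pseudogenes. It was not far from all genes, as it was centred 473 bp past the end of the protein-coding gene AT4G06744. It had 135, 76.5 and 127 tags per 10 M in HY5ox replicates 1 to 3 and a peak in 7 libraries, all but HY5-SRDX replicate 1. Intergenic regions with fewer than 40 genes within 100 kb had a peak in HY5-VP16 replicates 1, 2 and 3 in 83.5, 81.6 and 41.7% of cases, against 81.9, 75.3 and 46.2% of the other intergenic regions. In HY5-SRDX replicates 1 and 2 the shares were 44.7 and 72.8%, against 43.4 and 69.4%. A region with a peak in 1 fusion library lay 4796 bp upstream of CRF10 (chr1:25732361-25732633). It held 162, 155 and 169 tags per 10 M in HY5ox replicates 1 to 3 and 49.4 in HY5-VP16 replicate 3, with no peak in the other 4 fusion libraries. Its fold over the control was 3.22, 4.9 and 11.6 in HY5ox replicates 1 to 3, where 3 is required, and the 4 libraries without a peak share the control of HY5ox replicate 1.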
